A study of Mus musculus with 2 samples.

Results

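The genes described here are the immediate early transcription factor genes of the AP-1 group and 3 companions: the Fos family (Fos, Fosb, Fosl1, Fosl2), the Jun family (Jun, Junb, Jund), and Egr1, Ier3 and Myc. These 10 genes were chosen by name out of 25509 genes in the count table, and all 10 passed the filter on low counts. The study asked what silencing of the circular RNA circCsnk1g3 does to the transcriptome of soft-tissue sarcoma cells. The cells were C57BL/6 mesenchymal stem cells, p53-/- and overexpressing Ccne1, that had formed tumors under the skin of a primary recipient, were then seeded in the lungs of a secondary recipient and were recovered from the lung foci. They were transduced with a lentiviral short hairpin, either against the circRNA (shcircCsnk1g3) or a control (shCTR, called shSCR by the study), so both groups share the p53-/- label and the Ccne1 retrovirus. Polyadenylated RNA was sequenced in 1 library per group, so no test between the groups was possible, and each difference below is one between 2 libraries. The hairpin was that of the study's main silencing experiments. Whether the cells came from 1 tumor or several is not given in the sources used here.

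AP-1 is a dimer of basic leucine zipper proteins, in which a Fos protein pairs with a Jun protein, and Jun proteins can also pair with each other. Immediate early genes are transcribed within minutes of a growth factor or stress signal, without new protein synthesis, and their short-lived transcripts then decay quickly. In mesenchymal cells MAP kinases drive the response through the ternary complex factors, SRF, Jun and Atf2. Levels of these transcripts are known to move with serum, density and handling. The study kept sarcoma cells in medium with fetal bovine serum, while the density and the time since feeding at harvest of the sequenced cultures are not given in the sources used here.

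Total counts were 38792143 for shcircCsnk1g3 and 42709996 for shCTR. Levels are given as estimated counts and as CPM (counts divided by the library size) after TMM scaling for library composition. A difference is the log2 ratio of shcircCsnk1g3 to shCTR with a prior count of 2 added, so that a positive value means a higher level in the shcircCsnk1g3 library. The range behind it is a 95% interval for that ratio by the exact Clopper-Pearson method, which covers counting error only and not variation between cultures. The engineered genes could not check the labels, because polyadenylated RNA does not hold the circle and the counts are summed over whole genes. Linear Csnk1g3 had 2159 counts against 2411 (log2 difference -0.05, -0.14 to 0.03) and Ccne1 had 893 against 963. Trp53 had 3841 counts against 4334, which is unexpected of cells that lack the whole gene, and the exons deleted in the p53-/- allele are not given in the sources used here. Mesenchymal markers fitted the labelled cell type, with 9 of 10 above the filter and 468606 against 530166 summed counts, although Thy1 had 0 counts and 1 count. Leukocyte markers summed to 90 and 163 counts, nearly all from Cd68 (87 and 155), with Ptprc at 1 and 0. Endothelial markers summed to 19 and 29 counts and lung epithelial markers to 28 and 29, with Epcam and Sftpc at 0 in both libraries. In such bulk RNA, fewer cells that express a gene and less RNA of it per cell cannot be told apart.

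**Figure D1:**
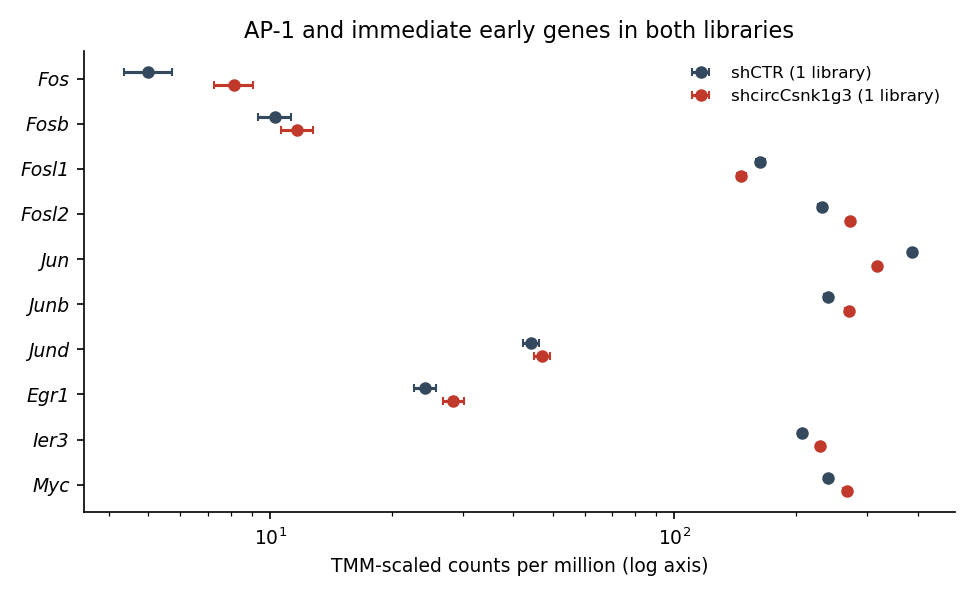
Level of each of the 10 genes in TMM-scaled CPM (horizontal log axis, not divided by gene length) in the shCTR and the shcircCsnk1g3 library, 1 point per library with the exact 95% interval for counting error. Jun is the highest in both libraries (389 and 317 CPM) and Fos the lowest (4.99 and 8.13 CPM), and only Jun and Fosl1 lie lower in shcircCsnk1g3.

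Most of the 10 genes were slightly higher in the shcircCsnk1g3 library, and the differences were small. None of them differed by 2-fold in either direction, and over all 12941 genes tested the shares past that threshold were 2.13% higher and 2.55% lower. Fos was the 1 member at least 1.5-fold higher, against 5.39% of all genes tested, and 0 members were at least 1.5-fold lower, against 6.31%. The interval lay wholly above 0 for 6 members (Fos, Fosl2, Junb, Egr1, Ier3 and Myc), against 26.9% of all genes, and wholly below 0 for 2 (Jun and Fosl1), against 28.2%. For Fosb and Jund the interval held 0. The median log2 difference was 0.16 (0.10 to 0.20, the medians of the lower and upper bounds), beside 0.00 over all genes tested. Whatever its direction, the median size of a difference was 0.18 for the members, 0.16 over all genes tested and 0.14 over the 10662 genes with at least 200 summed counts. Of the 10 members 9 (all but Jund) lay outside the quartiles of those deeper genes, -0.14 and 0.14. Beside the wider quartiles of all genes tested, -0.161 and 0.164, Fosl1, Ier3 and Myc lay inside as well. By definition quartiles leave as many genes outside as inside.

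**Figure D2:**
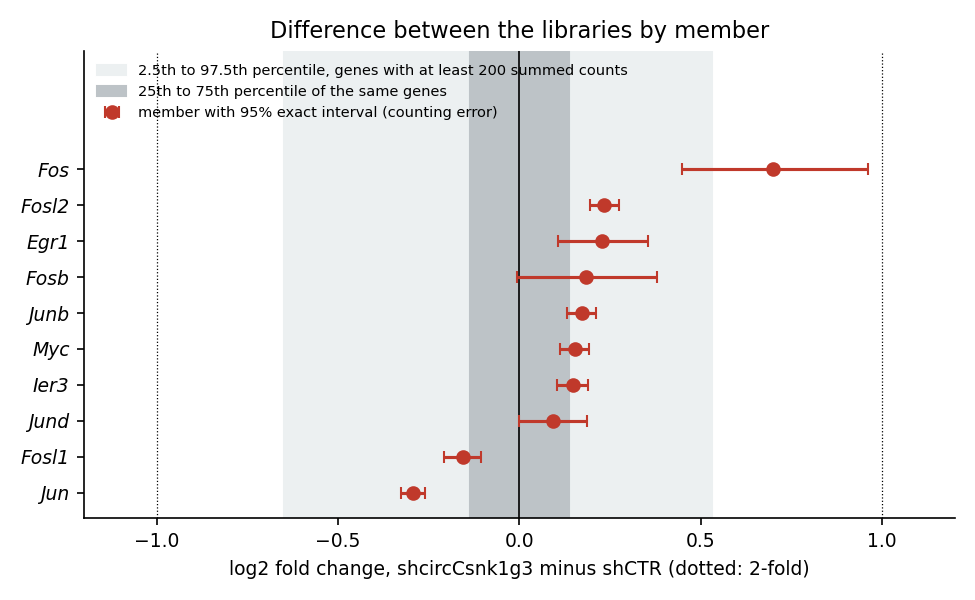
Log2 difference between the shcircCsnk1g3 and the shCTR library (horizontal axis) of the 10 genes, with 95% exact intervals for counting error and shaded bands that hold the central part of the 10662 genes with at least 200 summed counts, from -0.65 to 0.53 (light) and from -0.14 to 0.14 (dark). Fos lies farthest to the right at 0.70, Jun farthest to the left at -0.29, and the remaining members lie between -0.16 and 0.23.

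Among the Fos family, Fos had the largest difference and a low level. Fos (ENSMUSG00000021250, chromosome 12, 85473890 to 85477273, plus strand, 4 exons after merging transcripts, GRCm38) encodes the prototype of the family, which cannot pair with itself and needs a Jun partner. With shcircCsnk1g3 it had 319 counts (8.13 CPM) and with shCTR 211 counts (4.99 CPM). The log2 difference was 0.70 (0.45 to 0.96), a 1.62-fold higher level (1.36 to 1.95), and 521 of the genes tested had a larger one. Among the 1577 genes of like depth, those with 300 to 1000 counts summed over both libraries, the highest 2.5% of the log2 differences began at 0.79, so that Fos lay below them. Fosb (ENSMUSG00000003545, chromosome 7, 19302696 to 19310051, minus strand), a close relative induced with Fos, had 458 counts (11.7 CPM) against 434 (10.3 CPM). Its log2 difference of 0.18 (-0.01 to 0.38) was within counting error.

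The Fos-related antigens Fosl1 and Fosl2, which lack the strong activation domain of Fos and last longer after a stimulus, made up nearly all of the family's transcripts and differed in opposite directions. Fosl1 (ENSMUSG00000024912, chromosome 19, 5447547 to 5455946, plus strand), which encodes Fra-1, had 5751 counts (147 CPM) with shcircCsnk1g3 against 6905 (163 CPM) with shCTR, a log2 difference of -0.16 (-0.21 to -0.11). Fosl2 (ENSMUSG00000029135, chromosome 5, 32135801 to 32157842, plus strand), which encodes Fra-2, had 10684 counts (272 CPM) against 9788 (232 CPM), a log2 difference of 0.23 (0.19 to 0.27). Both intervals were narrow and lay on either side of 0. The exons of Fosl1 share 1163 of their 2033 bases with Ccdc85b on the opposite strand, which had 291 counts against 548 (log2 difference -0.80, -1.02 to -0.60). The library kit keeps the strand, but whether counting used it is not given in the sources used here. Reads of the pair may therefore be mixed, and the part of Ccdc85b in the Fosl1 value was not tested.

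In the Jun family Jun was lower in the shcircCsnk1g3 library while Junb was higher. Jun (ENSMUSG00000052684, chromosome 4, 95049034 to 95052222, minus strand, a single exon) encodes the strongest activator of the family. It had 12436 counts (317 CPM) with shcircCsnk1g3 against 16417 (389 CPM) with shCTR, the highest count of any member in both. The log2 difference was -0.29 (-0.33 to -0.26), a fold of 0.816, and 1874 of the genes tested had a lower one. Junb (ENSMUSG00000052837, chromosome 8, 84974484 to 84978718, minus strand) is a weaker activator that can oppose Jun at some promoters. Its counts were 10593 (270.1 CPM) and 10136 (239.9 CPM), a log2 difference of 0.17 (0.13 to 0.21). Jund (ENSMUSG00000071076, chromosome 8, 70698949 to 70700616, plus strand), the member that is kept at a steadier level in resting cells, had 1846 counts (47.1 CPM) against 1865 (44.1 CPM). Its log2 difference of 0.09, or 1.07-fold (0.999 to 1.14), was within counting error.

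Annotated genes on the opposite strand also touch the Jun family exons. Junb shares 173 bases with Prdx2, which had 14805 counts against 15864 (log2 difference 0.01), and Jund shares 877 of its 1668 bases with Gm11175, which had 230 counts against 150 (log2 difference 0.72, 0.42 to 1.03). Jun shares 232 bases with Junos. The part of these genes in the values of Junb, Jund and Jun was not tested.

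The promoters of Fos, Jun and Fosb are shown because Fos and Jun had the largest differences of the 10 genes, in opposite directions, and Fosb is the relative induced with Fos. Each line holds the 250 bases before the RefSeq transcription start on GRCm38.p6, from 5′ to 3′ in the direction of transcription, with matches to the motifs searched in capitals. Fos lies at chr12:85473640-85473889 on the plus strand, Jun at chr4:95052223-95052472 on the minus strand and Fosb at chr7:19310046-19310295 on the minus strand.
Fos promoter: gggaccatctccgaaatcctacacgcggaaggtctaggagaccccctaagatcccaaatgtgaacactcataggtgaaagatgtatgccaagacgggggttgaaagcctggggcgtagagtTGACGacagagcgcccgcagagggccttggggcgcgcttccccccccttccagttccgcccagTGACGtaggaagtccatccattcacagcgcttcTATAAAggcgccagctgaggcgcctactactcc
Jun promoter: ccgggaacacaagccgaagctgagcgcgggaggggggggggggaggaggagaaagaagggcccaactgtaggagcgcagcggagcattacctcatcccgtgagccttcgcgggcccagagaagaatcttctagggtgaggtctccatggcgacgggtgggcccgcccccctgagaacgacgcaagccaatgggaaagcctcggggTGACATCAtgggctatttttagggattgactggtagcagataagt
Fosb promoter: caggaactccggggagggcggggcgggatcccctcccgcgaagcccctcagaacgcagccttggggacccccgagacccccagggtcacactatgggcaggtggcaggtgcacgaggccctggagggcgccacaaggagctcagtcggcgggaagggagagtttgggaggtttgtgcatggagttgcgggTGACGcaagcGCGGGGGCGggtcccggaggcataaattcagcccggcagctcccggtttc

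Both strands were searched for the AP-1 element TGACTCA, the variant TGACATCA known from Jun, the cAMP response element TGACGTCA and its core TGACG (which lies within it), the Egr1 site GCGGGGGCG, the Myc E-box CACGTG, the TATA box TATAAA and the CArG box of SRF. Of the 10 genes, 7 matched an entry of the RefSeq promoter table. The Fos window held TGACG at 129 to 125 and at 66 to 62 bases before the start and TATAAA at 33 to 28 bases. The Jun window held TGACATCA at 45 to 38 bases before the start. The 2 windows therefore shared no match among these motifs, and bases farther upstream were not searched. The Fosb window held TGACG at 60 to 56 bases and GCGGGGGCG at 50 to 42 bases, the Fosl2 window GCGGGGGCG at 79 to 71 bases and the Junb window TGACG at 106 to 102 bases. The windows of Jund and Ier3 held no match. The RefSeq start lies 1210 bases from the GENCODE start given above for Jund, 671 bases for Fosl2, 30 for Junb and 29 for Ier3, so that the windows of Jund and Fosl2 do not adjoin the GENCODE start. Of all 32851 promoters, 17.8% held TGACG, 12.4% TATAAA, 6.02% CACGTG, 4.46% TGACTCA, 2.93% TGACATCA, 2.57% GCGGGGGCG, 1.55% TGACGTCA and 1.47% the CArG box. A match describes the letters and is not evidence of binding.

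Ratios of 2 members within a library need no scaling between libraries and show the opposite directions directly. The ratio of Jun to Junb counts was 1.17 with shcircCsnk1g3 against 1.62 with shCTR, or 0.725 times as high (0.699 to 0.751). The ratio of Jun to Jund was 6.74 against 8.80, or 0.765 times as high (0.714 to 0.820), while that of Junb to Jund differed by 1.06-fold, with an interval that held 1 (0.984 to 1.13). Both ratios that hold Jun were thus lower in the shcircCsnk1g3 library, beyond counting error. In the Fos family the ratio of Fosl1 to Fosl2 was 0.538 against 0.705, or 0.763 times as high (0.730 to 0.798). The ratio of Fos to each relative was higher in the shcircCsnk1g3 library, by 1.82-fold to Fosl1 (1.52 to 2.18), 1.43-fold to Fosb (1.15 to 1.79) and 1.39-fold to Fosl2 (1.16 to 1.66). The ratio of Fosb to Fosl1 was 1.27-fold higher (1.10 to 1.46), and that of Fosb to Fosl2 was 0.967 times as high, with an interval that held 1 (0.844 to 1.11). These 9 pairs are not independent of each other, because each member enters several.

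The family totals differed by 0.10 or less on the log2 scale. Summed over the Fos family there were 17212 counts (439 CPM) with shcircCsnk1g3 against 17338 (410.4 CPM) with shCTR, a log2 difference of 0.10 (0.07 to 0.13). Summed over the Jun family there were 24875 counts (634 CPM) against 28418 (673 CPM), a log2 difference of -0.08 (-0.11 to -0.06). Between genes, levels were compared per length, as counts per kilobase of merged exons, divided by the scaled library size in the same way as CPM (CPM per kilobase). On that scale the Fos family summed to 106 with shcircCsnk1g3 against 108 with shCTR, the other direction from its summed CPM. The Jun family summed to 245 against 253 per length, the same direction as its summed CPM. Per length Fosl1 made up 68.3% of the Fos family with shcircCsnk1g3 against 74.4% with shCTR, and Fosl2 made up 26.6% and 22.1%. Fos accounted for 3.27% and 1.96% of the family and Fosb for 1.77% and 1.52%. Within the Jun family Junb had the largest share in the shcircCsnk1g3 library (47.9%, Jun 40.6%) and Jun in the shCTR library (48.2%, Junb 41.3%), with Jund at 11.5% and 10.5%. The shares rest on annotated exon lengths, since the transcript forms used in these cells were not measured.

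**Figure D3:**
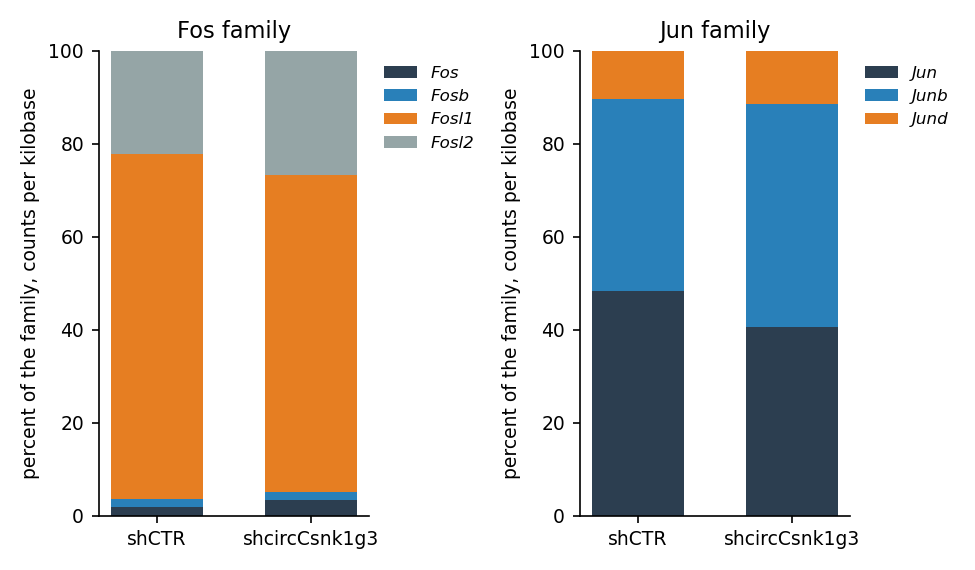
Share of each member in the summed per-length level of its family (vertical axis, percent) in the shCTR and the shcircCsnk1g3 library. Fosl1 had the largest share of the Fos family in both libraries, while the largest share of the Jun family was that of Jun in shCTR and that of Junb in shcircCsnk1g3.

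The companions outside AP-1 were slightly higher in the shcircCsnk1g3 library, by 0.15 to 0.23 on the log2 scale. Egr1 (ENSMUSG00000038418, chromosome 18, 34859823 to 34864984, plus strand), a zinc finger factor induced through SRF and the ternary complex factors, had 1113 counts (28.4 CPM) against 1023 (24.2 CPM), a log2 difference of 0.23 (0.11 to 0.35). Ier3 (ENSMUSG00000003541, chromosome 17, 35821684 to 35822923, plus strand), a small protein that affects cell survival and ERK signalling, had 9008 counts (229.7 CPM) against 8766 (207 CPM), a log2 difference of 0.15 (0.10 to 0.19). Myc (ENSMUSG00000022346, chromosome 15, 61985391 to 61990374, plus strand), the growth-promoting transcription factor and oncogene, had 10466 counts (267 CPM) against 10149 (240.2 CPM), a log2 difference of 0.15 (0.11 to 0.19). Each of these intervals lay above 0, and each fold was under 1.2.

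Depth decided how narrow an interval could be. With 100 counts in each library the interval reached 0.41 to either side on the log2 scale, with 1000 counts 0.13 and with 10000 counts 0.04. The lowest count of any member was 211 (Fos in shCTR), and 6 members had at least 10000 counts summed over both libraries. Of these 6, the interval of 4 lay above 0 (Fosl2, Junb, Ier3 and Myc) and that of 2 below (Jun and Fosl1). Of the 1829 genes of that depth, 31.0% lay above 0 and 47.0% below, with a median of -0.03, so an interval clear of 0 was common at this depth. The quartiles of the same genes were -0.14 and 0.07, and all 6 members lay outside them.

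**Figure D4:**
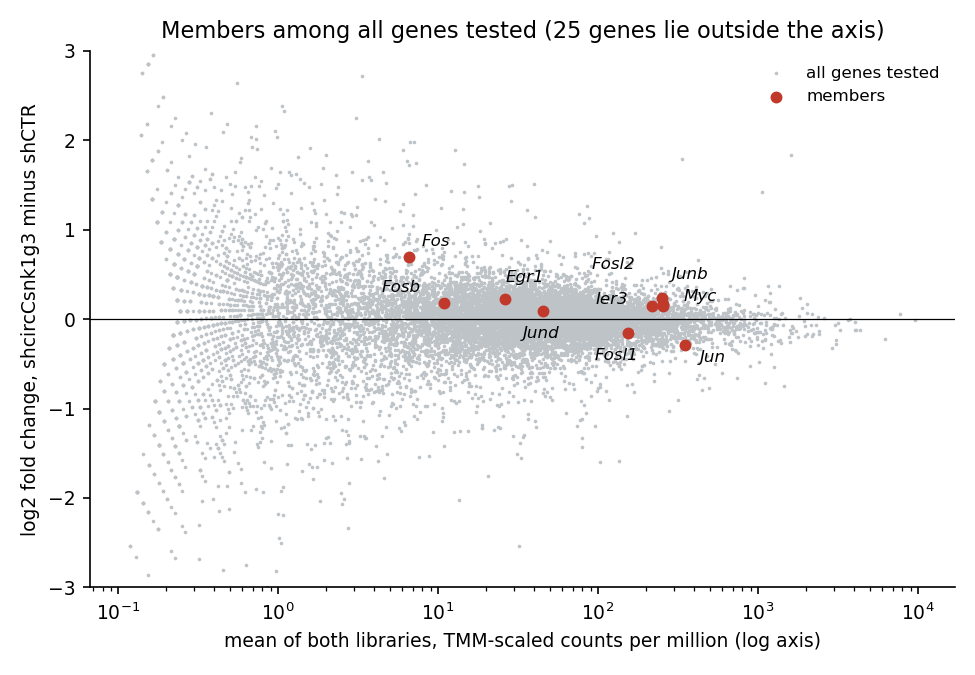
Log2 difference between the libraries (vertical axis) against mean level (horizontal log axis) of the genes tested with a difference of up to 3, with the 10 members named. The members lie within the cloud of other genes, with Fos at 0.70 and Jun at -0.29.

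The levels per length spanned 2 orders of magnitude and kept nearly the same order in both libraries. In the shCTR library Ier3 was the highest at 183 CPM per kilobase (180 to 187, exact interval), followed by Jun at 122 (120 to 124), Junb at 104 (102 to 106), Myc at 88.4 (86.7 to 90.1) and Fosl1 at 80.4 (78.5 to 82.3). Jund followed at 26.5 (25.3 to 27.7), Fosl2 at 23.9 (23.5 to 24.4), Egr1 at 5.40 (5.07 to 5.74), Fos at 2.12 (1.85 to 2.43) and Fosb at 1.65 (1.49 to 1.81). No neighbours in this order had overlapping intervals. The cells thus held the transcripts of 5 members at high levels, while those of Fos and Fosb, which are most closely tied to acute stimulation, were the scarcest. In the shcircCsnk1g3 library the order was Ier3 at 203 (199 to 207), Junb at 117 (115 to 120), Jun at 99.4 (97.7 to 101), Myc at 98.2 (96.4 to 100.1) and Fosl1 at 72.1 (70.3 to 74.0). Then came Jund at 28.2 (26.9 to 29.5), Fosl2 at 28.1 (27.6 to 28.7), Egr1 at 6.33 (5.96 to 6.71), Fos at 3.46 (3.09 to 3.86) and Fosb at 1.87 (1.70 to 2.05). Junb and Jun had changed places, and the intervals overlapped between Jun and Myc and between Jund and Fosl2.

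The partners of Fos and Jun in the wider AP-1 group included Atf3, which had a larger difference than any of the 10 genes. Of 13 listed genes 11 were tested, with an interval above 0 for 6 and below 0 for 1, beside 26.9% and 28.2% of all genes tested. The median log2 difference was 0.11, and 0.07 over those with at least 200 summed counts. Atf3, a stress-induced factor that pairs with Jun, had 1978 counts (50.4 CPM) with shcircCsnk1g3 against 911 (21.6 CPM) with shCTR. Its log2 difference was 1.22 (1.11 to 1.34). Atf3 and Batf2 were the list's 2 genes at least 2-fold higher, beside 2.13% of all genes tested. Batf2 had 16 counts against 7 and an interval that held 0. Batf, with 110 counts against 67 (0.80, 0.37 to 1.28), and Jdp2, a repressor that pairs with Jun, with 2768 against 2301 (0.37, 0.29 to 0.45), are, like Batf2, named after their values were seen. At the other end Maff, a small Maf protein, had 2207 counts against 2693, a log2 difference of -0.18 (-0.26 to -0.10). The interval of Atf3 lay above that of Fos (0.45 to 0.96), while those of Batf and Batf2 overlapped it.

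Immediate early genes other than the 10 members split in both directions. Of 44 listed genes 42 were tested, with an interval above 0 for 22 and below 0 for 9, beside 26.9% and 28.2% of all genes tested. Their median log2 difference was 0.17, close to the 0.16 of the members. Egr2, a relative of Egr1, had 209 counts against 126 (0.83, 0.51 to 1.17), and Arc, known from synaptic activity, had 1080 against 672 (0.79, 0.65 to 0.93). Btg2, an antiproliferative factor, had 232 against 155 (0.68, 0.39 to 0.99). All 3 were named for the size of their differences, so their place above Egr1 is no separate result. Ptgs2, which encodes the cyclooxygenase that makes prostaglandins, lay at the other end with 32973 counts (841 CPM) against 58229 (1378 CPM), a log2 difference of -0.71 (-0.73 to -0.69). Immediate early genes were therefore found on both sides of 0.

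Genes upstream of the members lay on both sides of 0. Of 24 genes of the Ras, ERK, JNK, p38 and SRF pathways, the interval lay above 0 for 6 and below 0 for 7, near the 26.9% and 28.2% of all genes tested, and the median log2 difference was 0.01. Creb1, which binds the cAMP response element, was the highest of those with at least 200 summed counts, with 2359 counts against 2126 (0.26, 0.17 to 0.34). Elk3, a ternary complex factor that mostly represses, was the lowest of them, with 6619 against 8770 (-0.30, -0.34 to -0.25). Transcript levels of kinases say nothing of their activity, and phosphorylation was not measured here.

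The feedback genes that restrain MAP kinases included some of the larger differences. Of 16 genes the interval lay above 0 for 6 and below 0 for 8, beside 26.9% and 28.2% of all genes tested, with a median log2 difference of -0.04. Dusp2, a nuclear phosphatase of MAP kinases, had 73 counts against 197 (-1.30, -1.73 to -0.93), the list's 1 gene at least 2-fold lower, beside 2.55% of all genes tested. Dusp5, a nuclear phosphatase of ERK, had 1329 counts against 2461 (-0.78, -0.88 to -0.68). Dusp8, a phosphatase of JNK and p38, had 1001 against 597 (0.85, with a lower bound of 0.71). The phosphatases thus lay on both sides of 0.

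Textbook targets of AP-1 were mostly lower in the shcircCsnk1g3 library. Of 21 genes the interval lay above 0 for 7 and below 0 for 13, with a median log2 difference of -0.19 (-0.27 to -0.09). Over all genes tested the interval lay above 0 for 26.9% and below 0 for 28.2%. Over genes with at least 10000 summed counts the shares were 31.0% and 47.0%. Of 15 housekeeping genes 2 lay above 0 and 9 below. The matrix metalloproteinase gene Mmp3 had 61 counts against 159 (-1.25, -1.73 to -0.84), and its relative Mmp10 had 716 against 1206 (-0.64, -0.78 to -0.51). Ptgs2 (-0.71) is on this list too. Vegfa, the growth factor of blood vessels, was the highest of those with at least 200 summed counts, with 11736 counts against 8847 (0.52, 0.48 to 0.56).

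The lists of genes around Egr1 and Myc, and of proteins that bind the AU-rich elements of short-lived transcripts, had medians from -0.15 to 0.13. The shares to set beside the counts that follow are again 26.9% of all genes above 0 and 28.2% below. Of 8 co-repressors and targets of Egr1, the interval lay above 0 for 4 and below 0 for 2, with a median log2 difference of 0.13, or 0.06 over those with at least 200 summed counts. Pdgfa, a growth factor gene with Egr1 sites, had 2368 counts against 1979 (0.37, 0.28 to 0.45), and Tgfb1 had 2181 against 2787 (-0.25). Pdgfb, with 132 counts against 66, was the list's 1 gene at least 2-fold higher (log2 difference 1.08, 0.67 to 1.56), beside 2.13% of all genes tested. Pdgfb is named after its values were seen. Among the partners of Myc 11 of 13 were tested, with an interval above 0 for 1 and below 0 for 6 and a median of -0.15, or -0.07 with no count filter. Mxd1, which competes with Myc for Max, had 296 counts against 267 (0.25, 0.01 to 0.50), and Fbxw7, part of the ligase that marks Myc for degradation, had 420 against 621 (-0.45, -0.64 to -0.28). Of 23 Myc targets, the interval lay above 0 for 6 and below 0 for 13, with a median of -0.12. Over genes with at least 10000 summed counts the share below 0 was 47.0%. The lowest, the ribosome biogenesis gene Bop1, had 5599 counts against 7875 (-0.38, -0.43 to -0.33), and the highest, Wdr43, had 7438 against 7078 (0.18). Of 6 AU-rich element binding proteins the median was 0.00, from Elavl1 (-0.07, 4642 counts against 5246) to Zfp36 (0.15, 1145 counts against 1109).

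Lists that mark handling and scaling stood as follows. All 10 tested heat shock genes had a log2 difference below 0, with an interval below 0 for 4 and a median of -0.06. The median of all genes tested was 0.00, so values below 0 were about as common there as values above. Heat shock genes with at least 200 summed counts ranged from Hspa1b (181 counts against 426, -1.12, -1.39 to -0.87) to Hspd1 (-0.01). Hspa1b was the list's 1 gene at least 2-fold lower, beside 2.55% of all genes tested. Of 15 housekeeping genes the interval lay above 0 for 2 and below 0 for 9, with a median of -0.08, and single genes ran from Gusb (-0.37) to Ywhaz (0.03). To set beside both lists, the interval lay above 0 for 26.9% of all genes tested and below 0 for 28.2%. Of genes with at least 10000 summed counts it lay above 0 for 31.0% and below 0 for 47.0%. The part of handling or culture state in the values of the 10 members was not tested. Several genes are on more than 1 list, and the lists are described by their counts and medians alone.

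**Figure D5:**
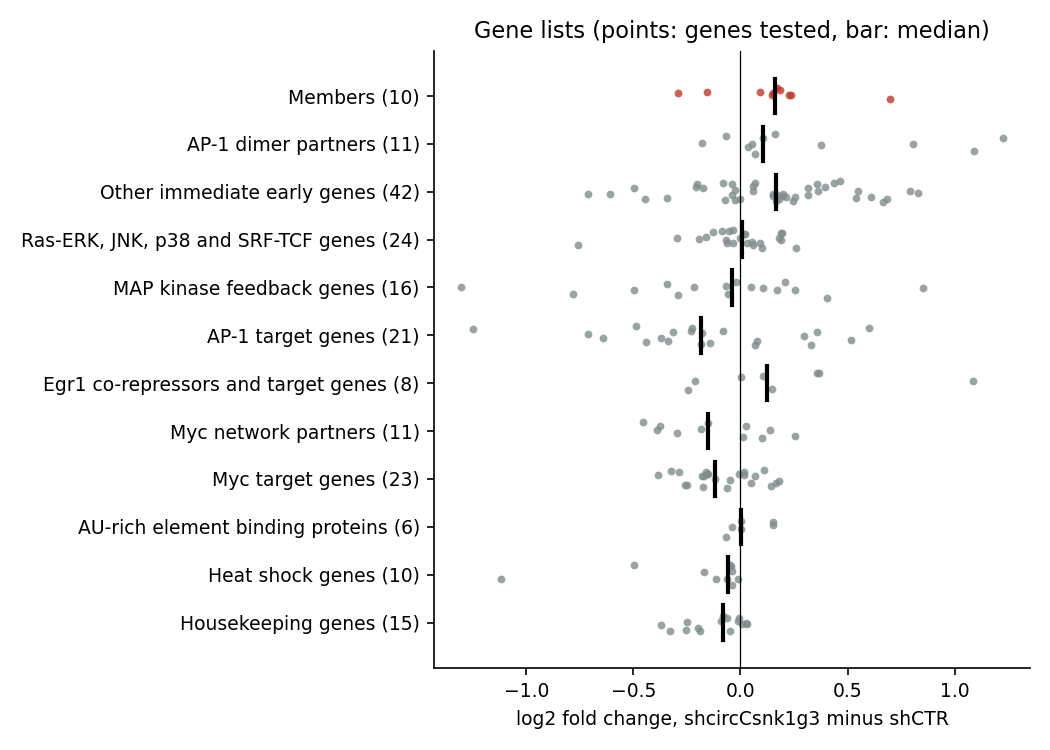
Log2 difference between the libraries (horizontal axis) of each tested gene of the members and of the other lists, 1 point per gene, with the list's median. The medians of the members (0.16) and of the other immediate early genes (0.17) lie to the right of 0, and that of the AP-1 targets (-0.19) to the left.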

How the data were processed

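RNA of 1 shcircCsnk1g3 and 1 shCTR library was measured as gene counts. Per the labels, libraries were made with a stranded mRNA kit from polyadenylated RNA. According to the article, the authors mapped reads with STAR on GRCm38 and summarised them per gene with RSEM, which splits reads that match several genes. The authors deposited these estimated counts (expected counts) rounded to whole numbers, and a second table of TMM-scaled CPM for 11624 genes, used here as an alternative. The 92 spike-in rows, at 0 in both libraries, were left out.

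Depth was 38792143 and 42709996 counts, and a count of 3 corresponds to 0.0765 and 0.0710 CPM. TMM factors came from edgeR 4.0.16 in R 4.3.3 over the 12941 genes that reached 10 counts in either library. Log2 ratios of CPM used a prior count of 2. Ratios have 95% Clopper-Pearson intervals, for counting error only. The edgeR count test was not run, because 1 library per group leaves no residual spread. Python 3.11.15 did the rest (scipy 1.17.1, numpy 2.4.6, matplotlib 3.10.9, pandas 2.3.3), and the steps were tested on simulated data.

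Coordinates and merged exon lengths are from GENCODE M21 on GRCm38, which held 25251 of the gene identifiers, and the authors' release is not named in the sources used here. Promoter sequences are from RefSeq on GRCm38.p6, with entries for 7 of the 10 members and none used for Fosl1, Egr1 and Myc. The members and lists were chosen with earlier results of these data known. Named genes are the members, the targeted and engineered genes and, from each list, the highest and lowest with at least 200 summed counts and others past 1.5-fold, at most 4 a list. Batf2, Batf, Jdp2, Pdgfb and single cell type markers were named outside that rule, after their values were seen. Alternatives were DESeq2 1.42.0 size factors, total counts, prior counts of 0.5 and 10, the deposited CPM, summed count minimums of 50 and 200, none at all, and a 1.5-fold threshold.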

Additional observations from a re-analysis of the deposited data

How the results depend on the processing

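With a 1.5-fold in place of a 2-fold threshold, 1 member (Fos) was counted as higher. Under the 8 other alternatives no member reversed and each of the 80 member values stayed within its own counting interval, with Fos between 0.68 and 0.73 and Jun between -0.30 and -0.26. The members' median lay between 0.16 and 0.19. Members with an interval above 0 numbered 6 as reported, 8 with total counts (Fosb and Jund added), 7 with no count filter and 7 with the deposited CPM (Jund added in both), and 6 otherwise. Those below 0 numbered 2 throughout. Total counts moved the median of all genes by 0.03, and with it list medians near 0, to -0.01 for the feedback genes, -0.03 for heat shock, -0.05 for housekeeping, 0.04 for the Ras to SRF genes and 0.03 for the AU-rich element binding proteins. The Ras to SRF median was 0.02 with either summed count minimum. With at least 200 summed counts the median of the AP-1 partners was 0.07 and that of the Egr1 list 0.06, and with no count filter that of the Myc partners was -0.07. No paired analysis was possible because each group held a single library, and for the same reason no replicate could be left out. Variation between cultures is unknown, so intervals show counting error only.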
